A study of Mus musculus with 18 samples.

Results

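The genes described here make, sense, move and export cholesterol and make fatty acids. The set names 40 mouse genes, and a gene was measured where a row of the deposited array table carried that gene as its single symbol in the platform annotation. This held for 37 of the 40 genes, among 19938 genes in all. Acat2, Nr1h2 and Soat1 were not analysed here. The 37 fall into 17 sterol synthesis enzymes, 6 genes of sterol sensing and control, 6 genes of uptake, storage and efflux, and 8 lipogenesis enzymes. Idi1, Fdft1 and Acaca had more than 1 row, and for these the row was chosen by its mean level over the 18 arrays, the brighter row being kept. The mean levels of the used and the other row were 8.66 and 8.45 for Idi1, 8.33 and 7.94 for Fdft1, and 7.63 and 6.28 for Acaca. The gene set was drawn up with results of these arrays in view, so its counts describe these genes and are not independent evidence of a direction.

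The study compared lymphatic endothelial cells (LEC), which line lymphatic vessels, with blood vascular endothelial cells (BEC), which line blood vessels, from mouse embryos. Their RNA was measured on 18 arrays of the Affymetrix Mouse Gene 1.0 ST design, in 6 groups of 3: each cell type at embryonic day 14.5 (E14.5), 16.5 and 18.5. The 3 arrays of a group are biological replicates from independent litters, and LEC and BEC of an age came from matching litters. The labels name no strain, genotype or treatment, and give the isolation of the cells only by a citation that was not used here.

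Cells obtain cholesterol by building it from acetyl-CoA through mevalonate, squalene and lanosterol, or by taking up lipoproteins. When membrane sterol falls, SCAP escorts the SREBP proteins (genes Srebf1 and Srebf2) from the endoplasmic reticulum to the Golgi, where they are cut and released to turn on sterol and fatty acid synthesis genes. INSIG proteins hold them back when sterol is plentiful. In that state the liver X receptors (LXR; the gene Nr1h3 encodes one) turn on exporters such as Abca1 and Abcg1. Endothelial cells sit between lipoprotein-carrying fluid and tissue, and lymphatic vessels return cholesterol-bearing lipoproteins from tissue to blood.

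The promoters of 5 sterol synthesis genes are shown, because SREBP acts at such promoters together with NF-Y, a factor that binds the CCAAT box. These 5 genes had the largest excess of LEC over BEC at E18.5 among the enzymes with a single promoter sequence. Each sequence is the 250 bases before the gene's start from RefSeq, in build GRCm38.p6, written 5′ to 3′ on the gene's strand. Capitals mark CCAAT (its complement reads ATTGG), the E-box CACGTG and TCACNCCAC, a form of the sterol regulatory element. The windows are chr8:64733579-64733828 on the minus strand for Msmo1, chr13:8885356-8885605 on the plus strand for Idi1, chr5:4104698-4104947 on the minus strand for Cyp51, chr9:42264301-42264550 on the minus strand for Sc5d and chr13:119690101-119690350 on the plus strand for Hmgcs1.
Msmo1: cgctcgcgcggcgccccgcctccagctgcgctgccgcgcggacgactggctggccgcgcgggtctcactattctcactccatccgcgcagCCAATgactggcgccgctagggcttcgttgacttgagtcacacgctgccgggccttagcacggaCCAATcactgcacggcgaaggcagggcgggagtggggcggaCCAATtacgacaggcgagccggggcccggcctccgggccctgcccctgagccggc
Idi1: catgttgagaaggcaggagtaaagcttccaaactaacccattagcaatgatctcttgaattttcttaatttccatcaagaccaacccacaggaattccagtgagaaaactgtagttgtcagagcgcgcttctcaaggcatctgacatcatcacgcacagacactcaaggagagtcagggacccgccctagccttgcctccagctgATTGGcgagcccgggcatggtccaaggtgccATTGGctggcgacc
Cyp51: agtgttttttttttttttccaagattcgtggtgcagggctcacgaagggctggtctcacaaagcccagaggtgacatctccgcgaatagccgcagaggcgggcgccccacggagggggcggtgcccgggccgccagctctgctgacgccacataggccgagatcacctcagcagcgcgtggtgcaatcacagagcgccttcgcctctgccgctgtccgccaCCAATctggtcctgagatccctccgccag
Sc5d: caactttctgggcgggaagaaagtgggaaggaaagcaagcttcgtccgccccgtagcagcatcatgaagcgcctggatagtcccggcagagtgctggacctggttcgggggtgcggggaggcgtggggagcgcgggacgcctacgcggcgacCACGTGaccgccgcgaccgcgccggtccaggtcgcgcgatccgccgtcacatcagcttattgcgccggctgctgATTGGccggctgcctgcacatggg
Hmgcs1: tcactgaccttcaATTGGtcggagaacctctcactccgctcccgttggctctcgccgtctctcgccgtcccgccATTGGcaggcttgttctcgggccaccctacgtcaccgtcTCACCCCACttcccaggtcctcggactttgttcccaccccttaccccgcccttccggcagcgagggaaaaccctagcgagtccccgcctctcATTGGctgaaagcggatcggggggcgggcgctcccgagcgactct
Msmo1 carried 3 CCAAT boxes, at 160 to 156, 96 to 92 and 55 to 51 bases before the start. Idi1 held 2 on the opposite strand, the nearer one at 14 to 10 bases. Hmgcs1 held 3 on the opposite strand. At 137 to 129 bases it held the only TCACNCCAC match among the 14 sterol synthesis genes with a promoter sequence. Sc5d held 1 CCAAT box and 1 E-box, and Cyp51 held 1 CCAAT box.

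The promoter table held 28 of the 37 measured genes, 14 of them sterol synthesis genes with 17 windows. The sterol synthesis genes Fdps, Fdft1 and Sqle had no window. CCAAT on either strand lay in 14 of these 17 windows (82.4%) and in at least 1 window of each of the 14 genes, against 33.8% of all 32851 windows of the same length. It lay in 5 of 12 windows of the sensing and control genes, 2 of 3 of uptake, storage and efflux, and 1 of 5 of lipogenesis. CACGTG lay in 3 of the 17 sterol synthesis windows (17.6%, against 6.02% of all windows) and TCACNCCAC in 1 (5.88%, against 1.05%). These are matches of letters and were not tested as binding sites.

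Values are log2 expression as deposited, so a difference of 1 is a 2-fold difference. Levels of different genes are not set against each other, because they depend on each gene's probes. Group differences were fitted with limma over all 19938 genes, with Benjamini-Hochberg adjustment within each contrast. A gene was called, or is said to be higher, to have risen or to have fallen, at an adjusted p under 0.05. Errors of differences are limma standard errors and errors of levels are SD over 3 arrays. The fit takes 1 spread per gene for all 6 groups, so a standard error does not show a wider spread at 1 age.

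The cell labels were read against marker lists, which were chosen with earlier results of these data known and are not independent evidence. The LEC arrays were higher in 9 of 9 lymphatic endothelial markers and lower in 10 of 10 blood endothelial markers over the 3 ages, and all 8 pan-endothelial markers lay above background in every group. Of these 8, 6 were lower in LEC over the 3 ages, with a median difference of -0.72. The E18.5 arrays stood apart from the earlier ones, with an interquartile range over all rows of 3.182 to 3.362 against 3.403 to 3.641. Markers of other cell types also differed. Over the 3 ages LEC arrays were higher in 15 of 16 macrophage markers, 8 of 8 mast cell markers and 10 of 12 keratinocyte and sebaceous markers, and BEC arrays in 9 of 9 mural markers. The summed log2 level of the macrophage list was 11.13 to 11.23, 11.77 to 12.74 and 12.91 to 13.56 in LEC at the 3 ages and 9.49 to 10.01 in BEC. That of the keratinocyte and sebaceous list reached 10.92 to 11.59 in LEC at E18.5 against 9.23 to 9.86 in BEC, and that of the mural list 11.73 to 12.06 in BEC at E18.5 against 8.99 to 9.54 in LEC. Of the erythroid markers 2 of 4 were lower in LEC, and of the hepatocyte markers 1 of 6, with 4 of the 6 at or below background in every group. The part of these cells in the results below was not tested, and in bulk RNA fewer cells of a type and less RNA per cell cannot be told apart.

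Nearly all of the lipid genes were expressed. The background bound was a log2 level of 4.58, the 95th percentile of 1194 olfactory and vomeronasal receptor genes, and 36 of the 37 genes had a mean above it in all 6 groups. Scd1 was the exception, with a BEC mean of 4.54 ± 0.20 at E16.5. Of the 37 genes, 94.6% had a mean level above 5.86, the median of all genes.

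LEC held more sterol synthesis and lipogenesis RNA than BEC. Over the 3 ages 26 of the 37 genes were higher in LEC and 5 lower, where 18.2% of all genes were higher and 19% lower. At E14.5, 14 were higher and 4 lower (background 8.6% and 7.94%). At E16.5 the counts were 20 and 4 (background 13% and 12.2%). By E18.5 they were 23 and 4 (background 14.6% and 15.9%). Without the E18.5 arrays, the mean over the other 2 ages gave 24 higher and 5 lower. LEC and BEC arrays did not overlap at any age for 17 genes that were higher in LEC (background 8.22%) and 4 that were lower (8.05%). Of these, 11 and 3 were called at each of the 3 ages. The 4 with all LEC arrays below BEC were the exporters Abcg1 and Abca1, the lysosomal lipase Lipa and Scap. Scap lay below by a small margin and was called at E18.5 only.

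**Figure D1:**
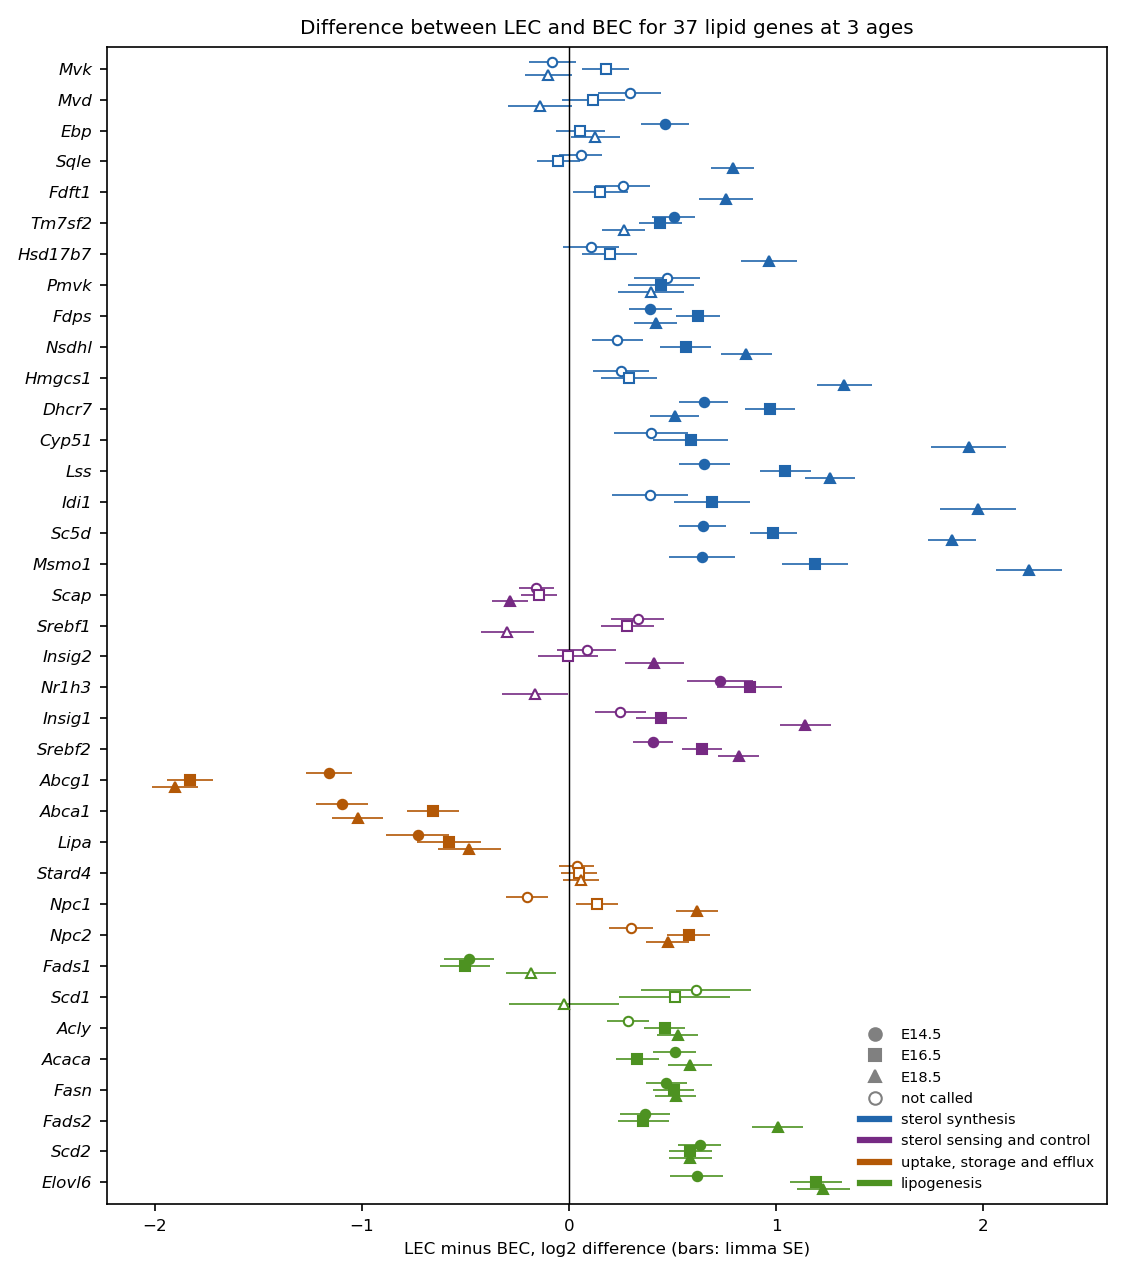
Difference between LEC and BEC on the log2 scale (x axis) for each of the 37 measured genes (y axis), at E14.5 (circles), E16.5 (squares) and E18.5 (triangles), with bars for the limma SE and filled symbols for called differences. Msmo1, Idi1, Cyp51 and Sc5d lie farthest right at E18.5, at 1.85 to 2.22, and Abcg1 lies farthest left, at -1.16 to -1.90.

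Sterol synthesis was higher in LEC along most of the pathway. Of the 17 enzymes, 15 were higher in LEC over the 3 ages and 0 were lower (0 also at an unadjusted p under 0.05), with a median difference of 0.48 against -0.02 over all genes. Of all genes 18.2% were higher and 19% lower. At E14.5 there were 7 enzymes higher, at E16.5 10 and at E18.5 12 (all genes 8.6%, 13% and 14.6%). None was lower at any age at either threshold (all genes 7.94%, 12.2% and 15.9% called lower). The median difference was 0.39, 0.45 and 0.79 at the 3 ages. Averaged over the 17 enzymes, the arrays ran from 8.07 to 8.17 in LEC and 7.61 to 7.86 in BEC at E14.5, from 7.70 to 7.76 and 7.19 to 7.30 at E16.5, and from 7.73 to 7.80 and 6.78 to 6.94 at E18.5. The groups did not overlap at any age.

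The first steps, from acetyl-CoA to mevalonate and isopentenyl diphosphate, were uneven. Hmgcs1, which makes HMG-CoA, was higher in LEC at E18.5 by 1.33 ± 0.13 (adjusted p = 2e-07), while its differences of 0.25 at E14.5 and 0.29 at E16.5 did not pass the test. Of the enzymes that convert mevalonate, the kinase Mvk differed by -0.00 ± 0.07 over the 3 ages (95% interval -0.14 to 0.14) and the decarboxylase Mvd by 0.09 ± 0.09 (-0.10 to 0.28), neither of them called, and the second kinase, Pmvk, was higher by 0.44 ± 0.09 (adjusted p = 0.00072).

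Idi1, which isomerises isopentenyl diphosphate to dimethylallyl diphosphate, read 9.16, 8.88 and 9.05 in LEC at E14.5, 8.69, 8.98 and 8.56 at E16.5, then 9.82, 9.94 and 9.42 at E18.5. The BEC arrays gave 8.78, 8.29 and 8.84, then 8.05, 8.33 and 7.79, then 8.04, 7.49 and 7.74, at the same ages in turn, the order kept for BEC below. LEC exceeded BEC at each age, narrowly at E14.5, and the highest readings were those of LEC at E18.5. The difference of 0.39 ± 0.18 at E14.5 was not called (adjusted p = 0.19). It was 0.69 ± 0.18 at the next age (adjusted p = 0.0083) and 1.97 ± 0.18, a 3.92-fold higher level, at E18.5 (adjusted p = 7.1e-08). The E16.5 call was lost on leaving out replicate 3 of BEC E16.5 or replicate 2 of LEC E16.5 (0.56 to 0.57, adjusted p = 0.052 to 0.055). The other Idi1 row gave 1.96 at E18.5.

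Fdps, the farnesyl diphosphate synthase, was higher in LEC by 0.48 ± 0.06 over the 3 ages, and Fdft1, the squalene synthase, by 0.39 ± 0.08, a difference that without the E18.5 arrays was 0.20 and not called (adjusted p = 0.059). Sqle, the squalene epoxidase, read 9.13, 8.90 and 8.95 in LEC at E14.5, 8.39, 8.36 and 8.29 at E16.5, then 8.37, 8.17 and 8.36 at E18.5. Its BEC readings were 9.04, 8.73 and 9.05, then 8.38, 8.47 and 8.35, then 7.57, 7.48 and 7.48. The cell types overlapped at E14.5 and E16.5 and stood apart at E18.5, where Sqle was higher in LEC by 0.79 ± 0.10 (adjusted p = 6.8e-06). Its mean difference over the 3 ages, 0.26 ± 0.06, was 0.00 without the E18.5 arrays (adjusted p = 0.99).

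Lss, which closes squalene epoxide into lanosterol, read 7.21, 7.17 and 7.17 in LEC at E14.5, 6.78, 6.81 and 6.95 at E16.5, then 6.47, 6.40 and 6.82 at E18.5. BEC arrays read 6.64, 6.37 and 6.59, then 5.74, 5.79 and 5.89, then 5.09, 5.36 and 5.46. It was higher in LEC in every comparison of arrays of 1 age. Its difference was 0.65 ± 0.12, 1.04 ± 0.12 and 1.26 ± 0.12 at the 3 ages in turn, with adjusted p = 0.00053, 1.5e-06 and 1.2e-07.

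Cyp51, the lanosterol demethylase, read 8.19, 7.98 and 8.18 in LEC at E14.5, 7.66, 7.69 and 7.55 at E16.5, then 8.32, 8.18 and 8.0 at E18.5. Readings in BEC were 7.88, 7.32 and 7.96, then 6.78, 7.44 and 6.93, then 6.42, 5.93 and 6.36. The groups did not overlap at any age, but at E14.5 1 BEC array lay well below the other 2 and the highest BEC array nearly reached LEC. The difference of 0.40 at E14.5 was not called (adjusted p = 0.17), and Cyp51 was higher by 0.59 ± 0.18 at the next age and by 1.93 ± 0.18, or 3.81-fold, at E18.5 (adjusted p = 0.02 and 7.1e-08). The E16.5 call was lost on leaving out replicate 1 or 3 of BEC E16.5 or replicate 1 or 2 of LEC E16.5 (0.45 to 0.57, adjusted p = 0.059 to 0.12).

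Msmo1, the methylsterol oxidase that acts downstream of Cyp51, had the largest difference of the enzymes at E18.5. Its LEC readings were 10.58, 10.34 and 10.50 at E14.5, 10.15, 10.26 and 10.13 at E16.5, then 10.77, 11.01 and 10.82 at E18.5. The BEC readings were 9.89, 9.52 and 10.09, then 8.85, 9.18 and 8.95, then 8.83, 8.26 and 8.85. LEC lay above BEC throughout, and the gap was widest at E18.5. It was 0.64 ± 0.16, 1.19 ± 0.16 and 2.22 ± 0.16 at the 3 ages in turn (adjusted p = 0.0063, 7.7e-06 and 1.6e-09), a 4.66-fold higher level. The E14.5 call was lost on leaving out replicate 2 of BEC E14.5 (0.48, adjusted p = 0.055). Nsdhl and Hsd17b7, whose products work with that of Msmo1 to strip methyl groups from the sterol ring, were higher at E18.5 by 0.86 ± 0.12 and 0.97 ± 0.14. The mean difference of Hsd17b7 over the 3 ages, 0.42 ± 0.08, was 0.15 and not called without the E18.5 arrays (adjusted p = 0.26).

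Sc5d, the desaturase that acts near the end of the pathway, read 8.45, 8.32 and 8.58 in LEC at E14.5, 8.08, 8.11 and 8.0 at E16.5, then 8.35, 8.55 and 8.61 at E18.5. In BEC it read 7.84, 7.62 and 7.96, then 7.04, 7.26 and 6.94, then 6.58, 6.68 and 6.71. There was no overlap at any age, and the difference was 0.64 ± 0.11, 0.99 ± 0.11 and 1.85 ± 0.11 at the 3 ages in turn (adjusted p = 0.00032, 1.4e-06 and 2.4e-10). Dhcr7, which performs the last reduction to cholesterol in one branch, was higher in LEC by 0.65, 0.97 and 0.51 at the 3 ages, and the difference between its age changes, -0.14 ± 0.17, was not called. The sterol reductase Tm7sf2 was higher by 0.40 ± 0.06 and the isomerase Ebp by 0.22 ± 0.07 over the 3 ages, and at E18.5 neither difference (0.26 and 0.13) was called.

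**Figure D2:**
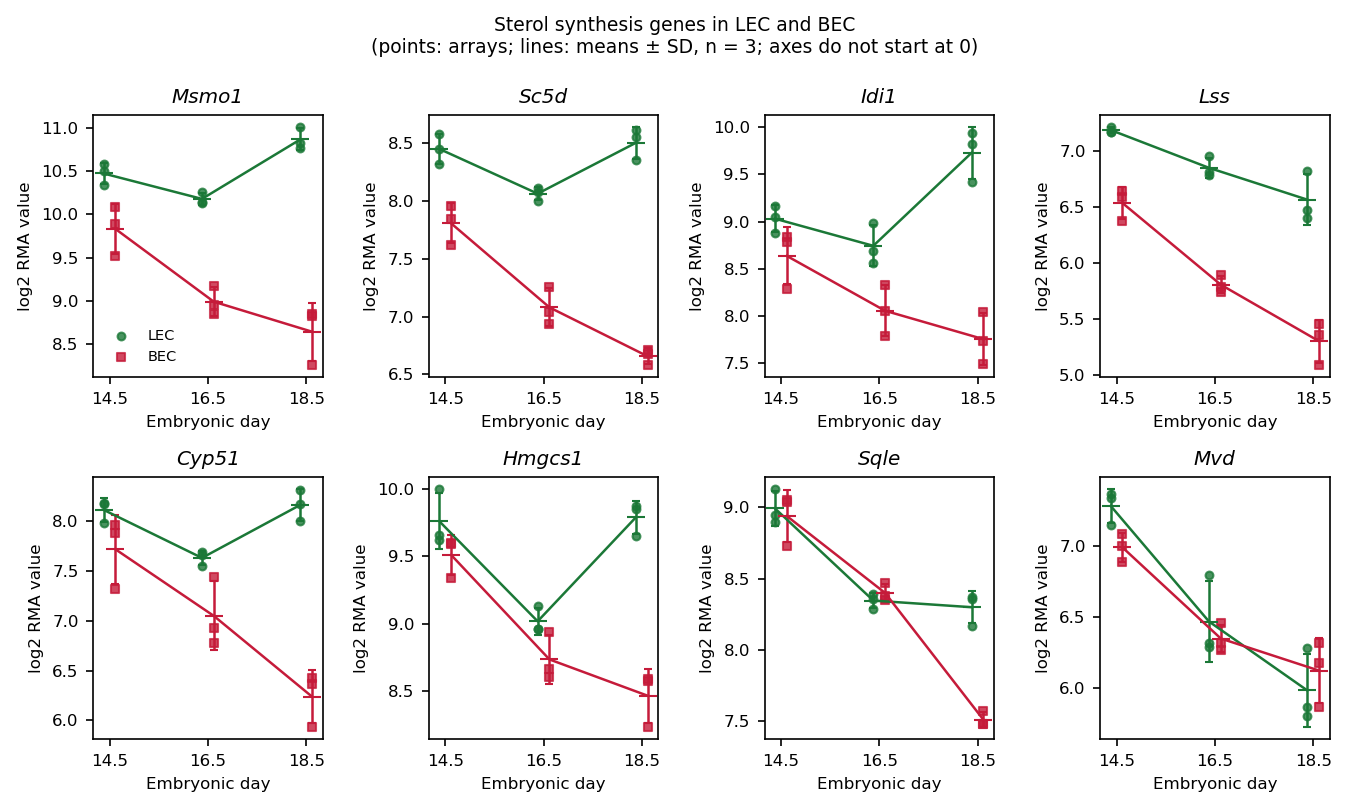
Log2 expression (y axis, not starting at 0) of 8 sterol synthesis genes in LEC (green circles) and BEC (red squares) against embryonic day (x axis), with 1 point per array and means ± SD over 3 arrays. Msmo1, Sc5d, Idi1, Cyp51 and Hmgcs1 have their lowest LEC mean at E16.5 and, in BEC, a lower mean at each later age, and Mvd overlaps between the cell types at E16.5 and E18.5.

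With age the sterol synthesis enzymes fell nearly throughout in BEC. From E14.5 to E18.5, 16 of the 17 fell and 0 rose (0 also at an unadjusted p under 0.05), with a median change of -0.88 against 0.04 over all genes. Over all 37 genes 25 fell and 5 rose, where 17.3% of all genes fell and 13.3% rose. The fall was called for 12 enzymes from E14.5 to E16.5 (all 37 genes: 17 fell and 0 rose, with 2 rises at an unadjusted p under 0.05 and 0 to 2 rises called in the alternative fits, background 4.66% and 5.1%) and for 8 from E16.5 to E18.5 (all 37 genes: 14 fell and 2 rose, background 16.4% and 15.8%). These 2 steps share the E16.5 arrays. Over all 37 genes 10 of the 17 calls of the first step and 9 of the 16 of the second held in every alternative fit. Of the enzymes in the first step, Cyp51 and Tm7sf2 were each lost in 5 of 15 fits and Dhcr7 in 4. Mvd and Mvk were each lost in 2 and Hsd17b7 in 1. In the second step Dhcr7 was lost in 5 of 14 fits, Fdft1 in 3 and Sc5d in 1. Cyp51 fell by 1.48 over the whole interval (adjusted p = 4e-06), Sqle by 1.43 (9.8e-09), Lss by 1.23 (3.8e-07), Msmo1 by 1.18 (1.2e-05), Sc5d by 1.15 (3.9e-07) and Hmgcs1 by 1.05 (7.4e-06). Nsdhl was the exception, with a change of -0.07 ± 0.12 (adjusted p = 0.74). In BEC 15 of the 17 had their lowest mean at E18.5.

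In LEC the enzymes divided. From E14.5 to E16.5, 8 of the 17 fell and 0 rose (0 also at an unadjusted p under 0.05), and over all 37 genes 14 fell and 2 rose, against a background of 5.72% and 8.07%. Over all 37 genes 11 of the 16 calls of this step held in every alternative fit. Of the enzymes, the fall of Sc5d was lost in 6 of 15 fits and that of Hsd17b7 in 2. From E16.5 to E18.5, 7 rose and 5 fell, and over all 37 genes 11 rose and 10 fell, against 15.9% and 18.5%. The 7 that rose were Idi1 (0.99 ± 0.18), Hmgcs1 (0.77 ± 0.13), Msmo1 (0.69 ± 0.16), Cyp51 (0.53 ± 0.18), Nsdhl (0.50 ± 0.12), Hsd17b7 (0.49 ± 0.14) and Sc5d (0.44 ± 0.11), all but 1 of them with their lowest LEC mean at E16.5. The rise of Cyp51 was lost on leaving out replicate 1, 2 or 3 of LEC E16.5 or replicate 1 or 2 of LEC E18.5 (0.46 to 0.56, adjusted p = 0.05 to 0.094) and in 2 of the 8 other alternative fits. The 5 that fell were the mevalonate enzymes Mvk, Pmvk and Mvd and the late enzymes Ebp and Dhcr7, by 0.45 to 0.83. Of these falls, that of Mvd was lost on leaving out replicate 3 of LEC E16.5 or replicate 1 or 2 of LEC E18.5 (-0.43 to -0.32, adjusted p = 0.066 to 0.12) and in 2 of the 8 other alternative fits.

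Over the whole interval in LEC 9 of the 17 enzymes fell and 2 rose (over all 37 genes 19 fell and 7 rose, background 21.2% and 19.7%). Mvd, the mevalonate decarboxylase, read 7.34, 7.15 and 7.37 in LEC at E14.5, 6.32, 6.29 and 6.80 at E16.5, then 5.80, 5.87 and 6.28 at E18.5. The BEC arrays gave 7.0, 6.89 and 7.09, then 6.46, 6.27 and 6.32, then 5.87, 6.32 and 6.18. It fell in both cell types, by 1.30 in LEC and by 0.87 in BEC (adjusted p = 1.5e-06 and 0.00021), and the changes differed by -0.43 ± 0.22, which was not called (adjusted p = 0.27). Pmvk fell by 1.17 and 1.10 and Dhcr7 by 0.96 and 0.82 in LEC and BEC. Idi1 rose in LEC by 0.70 ± 0.18 (adjusted p = 0.0048) and Nsdhl by 0.56 ± 0.12 (adjusted p = 0.0013), whereas Hmgcs1 (0.03), Cyp51 (0.05), Sc5d (0.06) and Hsd17b7 (-0.04) had LEC changes near 0 that were not called.

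The difference between the 2 age changes was tested directly. Of the 37 genes, 13 changed more positively in LEC than in BEC and 3 more negatively, where 5.02% and 3.83% of all genes did. Among the sterol enzymes there were 9 of 17 and 0 (0 also at an unadjusted p under 0.05), with a median of 0.61 against -0.01 over all genes. The largest were Idi1 at 1.58 ± 0.26 (adjusted p = 0.0005), Msmo1 at 1.58 ± 0.22 (0.00012), Cyp51 at 1.53 ± 0.26 (0.00055), Sc5d at 1.21 ± 0.16 (7.2e-05) and Hmgcs1 at 1.08 ± 0.19 (0.0009). Hsd17b7 (0.86) and Sqle (0.73) also held in every alternative fit. Lss (0.61, adjusted p = 0.033) was lost on leaving out replicate 1 or 3 of BEC E14.5, replicate 1 of BEC E18.5, replicate 1, 2 or 3 of LEC E14.5 or replicate 3 of LEC E18.5 (0.48 to 0.62, adjusted p = 0.062 to 0.091) and in 1 of the 8 other alternative fits. Nsdhl (0.62, adjusted p = 0.032) was lost on leaving out replicate 1 or 3 of BEC E14.5, replicate 1 or 2 of BEC E18.5, replicate 2 or 3 of LEC E14.5 or replicate 1 or 2 of LEC E18.5 (0.53 to 0.64, adjusted p = 0.055 to 0.09) and in 4 of the 8 other alternative fits.

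**Figure D3:**
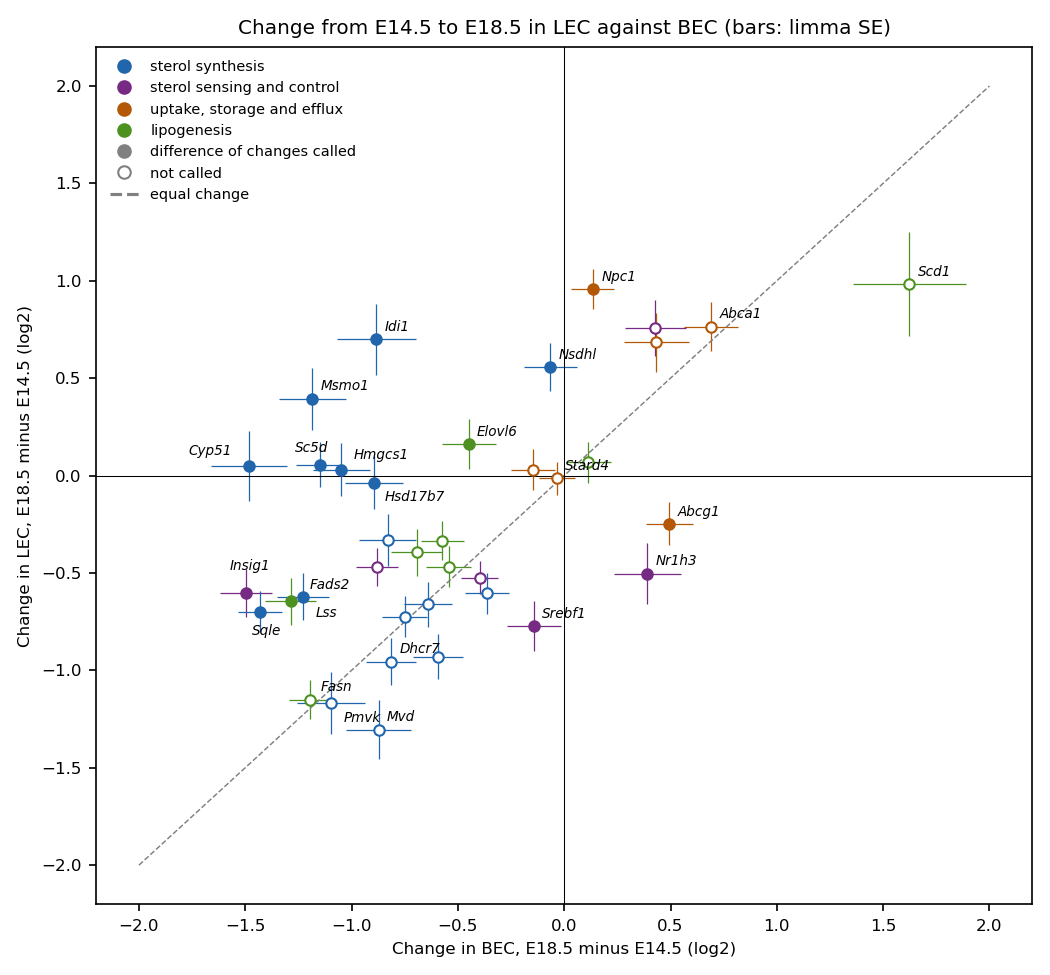
Change from E14.5 to E18.5 in LEC (y axis) against the change in BEC (x axis), both on the log2 scale, for the 37 genes, with bars for the limma SE, filled points where the difference of the changes was called and a dashed line of equal change. Idi1, Msmo1, Cyp51, Sc5d, Hmgcs1 and Hsd17b7 lie at the left near or above 0 in LEC, Mvd, Pmvk, Dhcr7 and Fasn lie near the line below 0, and Nr1h3, Srebf1 and Abcg1 lie below the line.

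The split of age changes over all genes depended on how arrays were scaled. With every array shifted to a common median, the share of rises among the called genes went from 46.3% to 26.6% in LEC from E16.5 to E18.5 and from 48.2% to 37.6% in LEC from E14.5 to E18.5. In BEC it went from 52.2% to 66.4% in the first step and from 49.1% to 30.5% in the second. The median change of all genes in LEC from E16.5 to E18.5 went from 0.05 to -0.07, and of the 37 lipid genes 8 then rose and 13 fell there.

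Cell cycle markers also fell with age, 13 of 14 in LEC and 9 of 14 in BEC from E14.5 to E18.5, and 8 of 14 changed more negatively in LEC than in BEC. Over the same interval 14 of 16 macrophage markers rose and 1 fell in LEC, and 3 rose and 4 fell in BEC. All 9 mural markers rose in BEC, and in LEC 3 rose and 3 fell. Of the 12 keratinocyte and sebaceous markers, 6 rose and 1 fell in each cell type from E16.5 to E18.5, with a median change of 1.09 in LEC and 0.65 in BEC, and from E14.5 to E18.5 5 changed more positively in LEC and 1 more negatively. Of the 8 mast cell markers 5 fell and 1 rose in BEC from E14.5 to E18.5, 3 rose in LEC, and 4 changed more positively in LEC. Their part in the age changes was not tested. In BEC at E14.5 the second replicate was the lowest array for 13 of the 17 sterol enzymes. In LEC at E14.5 the second replicate was lowest for 12, and in BEC at E18.5 the second replicate was lowest for 10.

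The control genes differed among themselves. Over the 3 ages 3 of 6 were higher in LEC and 1 lower, where 18.2% of all genes were higher and 19% lower. Srebf2 was higher at each age, Insig1 at E16.5 and E18.5, and Nr1h3 at E14.5 and E16.5. From E14.5 to E18.5, 5 of 6 fell in LEC and 1 rose (all genes 21.2% and 19.7%). In BEC 3 fell and 1 rose (all genes 17.3% and 13.3%).

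Srebf2, whose product SREBP-2 drives sterol synthesis genes, read 9.41, 9.43 and 9.45 in LEC at E14.5, 9.03, 8.96 and 9.17 at E16.5, then 8.96, 8.81 and 9.11 at E18.5. Its BEC readings were 8.96, 9.04 and 9.08, then 8.51, 8.41 and 8.33, then 8.06, 8.22 and 8.16. LEC lay above BEC at each age, and both cell types were lower at E18.5 than at E14.5. The difference was 0.41 ± 0.10, 0.64 ± 0.10 and 0.82 ± 0.10 at the 3 ages (adjusted p = 0.0054, 4e-05 and 1.9e-06). Srebf2 fell by 0.47 in LEC and 0.88 in BEC (adjusted p = 0.0007 and 1.4e-06), a difference of 0.41 that was not called (adjusted p = 0.074).

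Insig1, which encodes a retention protein and is itself an SREBP target, read 9.88, 10.02 and 10.01 in LEC at E14.5, 9.13, 9.26 and 8.98 at E16.5, then 9.38, 9.23 and 9.49 at E18.5. BEC arrays read 9.70, 9.57 and 9.90, then 8.70, 8.86 and 8.48, then 8.39, 8.16 and 8.12. The groups overlapped at E14.5 and stood apart afterwards, with differences of 0.44 ± 0.12 and 1.14 ± 0.12 (adjusted p = 0.011 and 5.2e-07). It fell by 0.60 in LEC and 1.5 in BEC, and the changes differed by 0.89 ± 0.17 (adjusted p = 0.0023). The E16.5 call was lost on leaving out replicate 3 of BEC E16.5 or replicate 2 of LEC E16.5 (0.34 to 0.38, adjusted p = 0.059 to 0.075). Its paralog Insig2 rose by 0.76 in LEC and 0.43 in BEC (adjusted p = 0.0003 and 0.029). The BEC call was lost on leaving out replicate 1 or 2 of BEC E14.5 or replicate 3 of BEC E18.5 (0.28 to 0.46, adjusted p = 0.051 to 0.16) and in 2 of the 8 other alternative fits. Insig2 was higher in LEC at E18.5 by 0.41 ± 0.14 (adjusted p = 0.036), which was lost on leaving out replicate 1 or 2 of BEC E18.5 or replicate 2 or 3 of LEC E18.5 (0.30 to 0.37, adjusted p = 0.099 to 0.17) and in 3 of the 8 other alternative fits.

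Srebf1, whose products favour fatty acid synthesis genes, read 7.86, 7.90 and 7.77 in LEC at E14.5, 7.54, 7.38 and 7.69 at E16.5, then 7.29, 7.05 and 6.87 at E18.5. Readings in BEC were 7.49, 7.59 and 7.45, then 7.32, 7.05 and 7.41, then 7.40, 7.52 and 7.19. LEC lay above BEC at E14.5, and the groups overlapped at the later ages; no difference was called at any age. In LEC it fell by 0.77 (adjusted p = 7.2e-05), the BEC change of -0.14 ± 0.13 was not called (adjusted p = 0.44), and the changes differed by -0.63 ± 0.18 (adjusted p = 0.034). The last call was lost on leaving out replicate 1 or 3 of BEC E14.5, replicate 1 or 2 of BEC E18.5, replicate 1 or 2 of LEC E14.5 or replicate 2 or 3 of LEC E18.5 (-0.62 to -0.53, adjusted p = 0.059 to 0.088).

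Nr1h3, which encodes LXR alpha, read 6.16, 6.11 and 6.01 in LEC at E14.5, 6.41, 6.19 and 6.38 at E16.5, then 5.53, 5.39 and 5.86 at E18.5. In BEC it read 5.53, 5.16 and 5.40, then 5.45, 5.61 and 5.30, then 5.35, 5.89 and 6.02. It was higher in LEC at E14.5 by 0.73 ± 0.16 (adjusted p = 0.0022) and at E16.5 by 0.87 ± 0.16 (adjusted p = 0.00027), and at E18.5 the groups overlapped, with a difference of -0.17 ± 0.16 (adjusted p = 0.47). The changes from E14.5 to E18.5 differed by -0.89 ± 0.22 (adjusted p = 0.015), with a fall of 0.50 in LEC (adjusted p = 0.015) and a change of 0.39 in BEC that was not called. The fall in LEC was lost on leaving out replicate 1 of LEC E14.5 or replicate 2 of LEC E18.5 (-0.47 to -0.40, adjusted p = 0.053 to 0.076).

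Scap, the SREBP escort, was the 1 control gene lower in LEC. It read 7.90, 8.04 and 7.96 in LEC at E14.5, 7.79, 7.78 and 7.80 at E16.5, then 7.5, 7.37 and 7.47 at E18.5. The BEC arrays gave 8.08, 8.21 and 8.09, then 7.98, 7.96 and 7.86, then 7.67, 7.80 and 7.71. The arrays of the cell types did not overlap at any age, but the mean difference over the ages was only -0.20 ± 0.05 (adjusted p = 0.0039). Of the single ages only E18.5 was called, and that call was lost in 4 of 14 alternative fits. Scap fell by 0.52 in LEC and 0.40 in BEC (adjusted p = 7.1e-05 and 0.0015).

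The exporters Abca1 and Abcg1 ran the other way from most synthesis enzymes. Of the 6 genes of uptake, storage and efflux, 3 were lower in LEC over the 3 ages (Abcg1, Abca1 and Lipa) and 2 higher (Npc1 and Npc2), with a median difference of -0.28. Of all genes 19% were lower and 18.2% higher. From E14.5 to E18.5, 3 rose and 0 fell in each cell type (1 fell in LEC and 0 in BEC at an unadjusted p under 0.05). Of all genes 19.7% rose and 21.2% fell in LEC, and 13.3% rose and 17.3% fell in BEC. Stard4, which carries cholesterol between membranes, read 9.13 to 9.39 over all 18 arrays, and none of its 11 contrasts was called. Its difference between LEC and BEC was 0.05 ± 0.05 (95% interval -0.06 to 0.15).

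Abcg1, which exports cholesterol to mature high-density lipoprotein, read 7.5, 7.47 and 7.44 in LEC at E14.5, 7.14, 6.87 and 7.19 at E16.5, then 7.04, 7.15 and 7.48 at E18.5. Its BEC readings were 8.59, 8.65 and 8.65, then 8.89, 8.85 and 8.94, then 9.10, 9.12 and 9.15. All LEC arrays lay more than 1 log2 unit below all BEC arrays. The difference was -1.16 ± 0.11, -1.83 ± 0.11 and -1.90 ± 0.11 at the 3 ages in turn (adjusted p = 1.8e-07, 1.7e-10 and 1e-10), a 3.74-fold lower level in LEC. It rose in BEC by 0.50 ± 0.11 (adjusted p = 0.0019), the LEC change was -0.25 ± 0.11 and not called (adjusted p = 0.082), and the changes differed by -0.74 ± 0.16 (adjusted p = 0.0042).

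Abca1, which loads cholesterol onto lipid-poor apolipoprotein A-I, read 8.89, 8.88 and 9.10 in LEC at E14.5, 9.66, 9.36 and 9.80 at E16.5, then 9.45, 9.91 and 9.79 at E18.5. BEC arrays read 10.06, 10.11 and 9.98, then 10.29, 10.16 and 10.33, then 10.72, 10.72 and 10.78. LEC lay below BEC at each age, by 1.10, 0.66 and 1.02 (adjusted p = 2e-06, 0.00046 and 2.8e-06). Abca1 rose by 0.76 ± 0.13 in LEC and 0.69 ± 0.13 in BEC (adjusted p = 6.8e-05 and 0.0003), and the changes differed by 0.07 ± 0.18 (95% interval -0.30 to 0.45), which was not called.

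Lipa, the lysosomal lipase that frees cholesterol from its esters, read 7.80, 7.74 and 8.13 in LEC at E14.5, 8.09, 8.04 and 8.23 at E16.5, then 8.30, 8.88 and 8.54 at E18.5. Readings in BEC were 8.68, 8.44 and 8.74, then 8.60, 8.74 and 8.75, then 8.89, 8.92 and 9.36. It was lower in LEC by 0.60 over the 3 ages (adjusted p = 1.6e-05), and at E18.5 the highest LEC array came within 0.1 of the lowest BEC array. The E18.5 difference of -0.48 (adjusted p = 0.022) was lost on leaving out replicate 3 of BEC E18.5 or replicate 1 or 3 of LEC E18.5 (-0.47 to -0.33, adjusted p = 0.053 to 0.13) and in 2 of the 8 other alternative fits. Lipa rose in LEC by 0.68 ± 0.15 (adjusted p = 0.0013). In BEC the rise of 0.43 (adjusted p = 0.038) was lost on leaving out replicate 1 or 2 of BEC E14.5 or replicate 3 of BEC E18.5 (0.28 to 0.46, adjusted p = 0.061 to 0.19) and in 2 of the 8 other alternative fits.

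Npc1 and Npc2, which together pass cholesterol out of the lysosome, were higher in LEC. Npc1 read 7.91, 7.86 and 7.94 in LEC at E14.5, 8.38, 8.20 and 8.29 at E16.5, then 8.79, 9.07 and 8.72 at E18.5. In BEC it read 8.14, 8.06 and 8.12, then 8.16, 8.16 and 8.14, then 8.17, 8.38 and 8.18. BEC readings hardly moved, while in LEC Npc1 went from below BEC at E14.5 to above it at E18.5. The difference was -0.20 ± 0.10 and 0.14 ± 0.10 at the first 2 ages, both not called, and 0.62 ± 0.10 at E18.5 (adjusted p = 7.9e-05), so the mean of 0.18 became -0.03 without the E18.5 arrays (adjusted p = 0.7). It rose by 0.96 ± 0.10 in LEC (adjusted p = 4.2e-07), and the changes differed by 0.82 ± 0.14 (adjusted p = 0.00079).

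Npc2 read 8.78, 8.78 and 8.58 in LEC at E14.5, 8.86, 8.81 and 8.89 at E16.5, then 8.73, 8.68 and 8.82 at E18.5. The BEC arrays gave 8.36, 8.52 and 8.37, then 8.32, 8.26 and 8.26, then 8.09, 8.49 and 8.23. LEC lay above BEC at each age, by 0.45 ± 0.06 over the 3 ages (adjusted p = 5.5e-06), and neither cell type had a called change with age. Nr1h3, Npc1, Npc2, Lipa, Abca1 and Abcg1 are also expressed by macrophages, whose markers were higher in LEC arrays and rose there with age. Of these 6 genes, Npc1, Npc2 and Nr1h3 were higher in LEC over the 3 ages and Abca1, Abcg1 and Lipa lower. From E14.5 to E18.5 in LEC, Npc1, Abca1 and Lipa rose and Nr1h3 fell. The part of macrophage RNA in their levels was not tested.

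**Figure D4:**
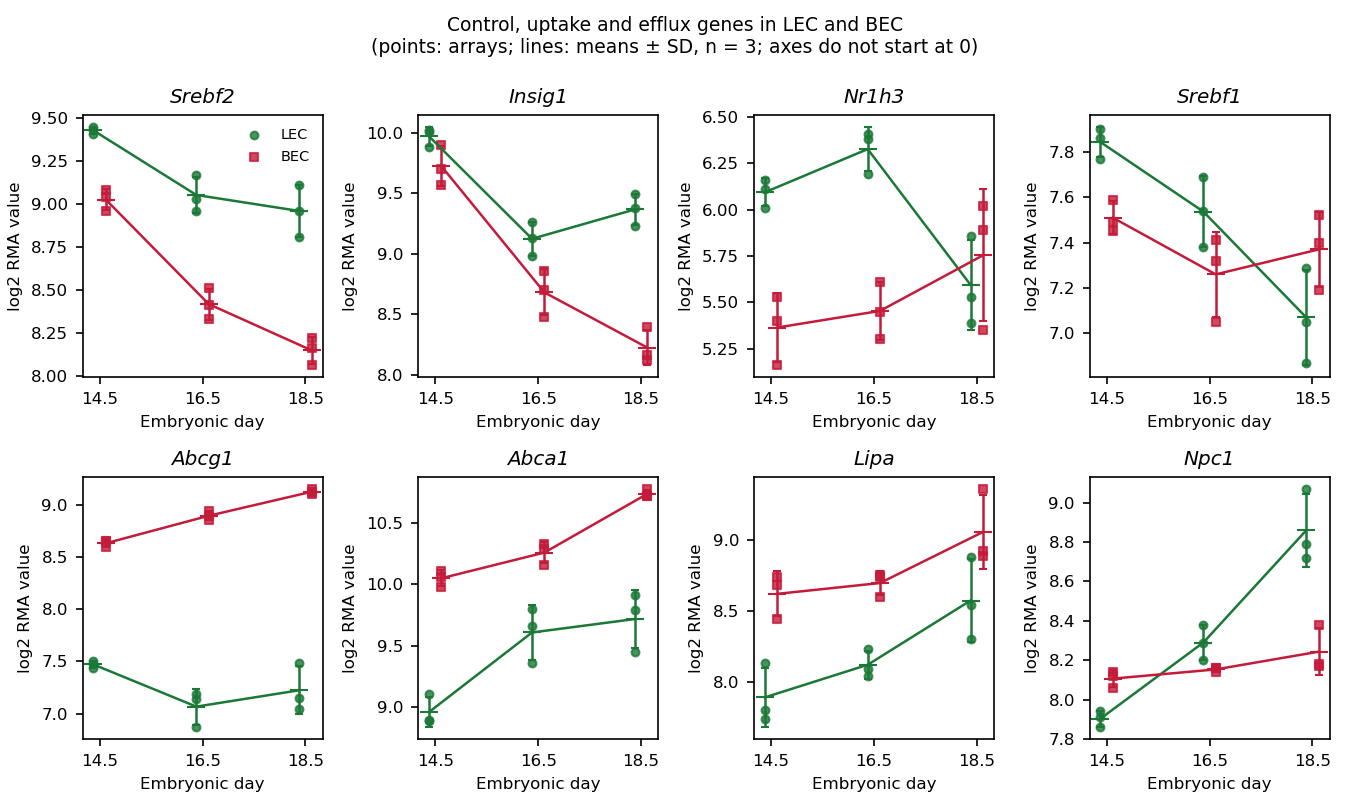
Log2 expression (y axis, not starting at 0) of 4 control genes and 4 genes of efflux and lysosomal cholesterol handling in LEC (green circles) and BEC (red squares) against embryonic day (x axis), with 1 point per array and means ± SD over 3 arrays. Srebf2 stays higher and Abcg1, Abca1 and Lipa stay lower in LEC at each age, Nr1h3 loses its gap at E18.5 and Npc1 gains one.

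Most lipogenesis enzymes were higher in LEC too, and most fell with age in both cell types. Over the 3 ages 6 of the 8 enzymes were higher in LEC (Acly, Acaca, Fasn, Elovl6, Scd2 and Fads2) and 1 lower (Fads1), with a median difference of 0.49. Of all genes 18.2% were higher and 19% lower. At E14.5 5 were higher and 1 lower (all genes 8.6% and 7.94%), with 6 and 1 at the next age (13% and 12.2%). By E18.5 6 were higher and 0 lower, 0 also at an unadjusted p under 0.05 (all genes 14.6% and 15.9%). From E14.5 to E18.5, 5 fell and 1 rose in LEC (all genes 21.2% and 19.7%). In BEC 6 fell and 1 rose (all genes 17.3% and 13.3%). The changes differed for 2 of 8, and for 0 in the other direction at either threshold (all genes 5.02% and 3.83%).

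The enzymes that lead to palmitate were higher in LEC by similar amounts. Acly, which supplies acetyl-CoA in the cytosol, was higher by 0.42 ± 0.06 over the 3 ages (adjusted p = 6.2e-06) and Acaca, which makes malonyl-CoA, by 0.47 ± 0.06 (adjusted p = 2.7e-06), with 0.45 in its other row. Fasn, which builds palmitate, read 9.17, 9.13 and 9.05 in LEC at E14.5, 8.55, 8.54 and 8.57 at E16.5, then 8.08, 7.80 and 8.03 at E18.5. Its BEC readings were 8.68, 8.59 and 8.68, then 8.11, 8.03 and 8.01, then 7.55, 7.55 and 7.26. The 2 cell types kept apart at each age and moved down in step. The difference was 0.47 ± 0.10, 0.50 ± 0.10 and 0.51 ± 0.10 at the 3 ages (adjusted p = 0.0019, 0.00069 and 0.00053). Fasn fell by 1.15 in LEC and 1.19 in BEC (adjusted p = 4.5e-08 and 5.6e-08), and the changes differed by 0.04 ± 0.14 (95% interval -0.25 to 0.34).

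Elovl6, which lengthens palmitate to stearate, read 8.34, 8.38 and 8.21 in LEC at E14.5, 8.62, 8.34 and 8.42 at E16.5, then 8.66, 8.53 and 8.23 at E18.5. BEC arrays read 7.80, 7.68 and 7.61, then 7.20, 7.35 and 7.25, then 7.47, 7.02 and 7.24. It had the largest mean difference of the lipogenesis enzymes, 1.01 ± 0.07 (adjusted p = 9e-10), with 0.62, 1.19 and 1.23 at the 3 ages. The changes with age differed by 0.61 ± 0.18 (adjusted p = 0.039), a call that was lost on leaving out replicate 1, 2 or 3 of BEC E14.5, replicate 2 or 3 of BEC E18.5, replicate 1, 2 or 3 of LEC E14.5 or replicate 1 or 2 of LEC E18.5 (0.50 to 0.66, adjusted p = 0.05 to 0.1) and in 5 of the 8 other alternative fits.

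Scd2, a desaturase that makes monounsaturated fatty acids, read 10.86, 10.93 and 10.93 in LEC at E14.5, 10.77, 10.79 and 10.86 at E16.5, then 11.03, 10.76 and 11.13 at E18.5. Readings in BEC were 10.33, 10.28 and 10.21, then 10.32, 10.25 and 10.10, then 10.38, 10.29 and 10.50. The gap was steady, at 0.63 ± 0.10, 0.59 ± 0.10 and 0.59 ± 0.10 (adjusted p = 0.00014, 0.00022 and 0.0002), and no change with age was called.

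Scd1 is a close relative of Scd2. It read 5.31, 5.24 and 5.36 in LEC at E14.5, 4.92, 5.14 and 5.07 at E16.5, then 5.95, 6.45 and 6.46 at E18.5. In BEC it read 4.80, 4.60 and 4.67, then 4.32, 4.72 and 4.58, then 5.71, 7.29 and 5.94. Levels at the first 2 ages lay within 1 log2 unit of the background bound and were higher in every array of E18.5, where the second BEC replicate lay more than 1 log2 unit above the other 2. Scd1 rose by 0.98 ± 0.27 in LEC and 1.62 ± 0.27 in BEC (adjusted p = 0.0057 and 0.0001). The E18.5 difference between the cell types was -0.03 ± 0.27 (adjusted p = 0.96), and without that BEC replicate it was 0.46 (adjusted p = 0.033). This error rests on all 6 groups. The SD was 0.29 in LEC and 0.85 in BEC at E18.5, and 0.06 to 0.20 in the earlier groups, so the error is too small for E18.5. The adipocyte list summed to 10.17 in the same array, against 9.64 and 9.91 in the other BEC arrays of that age and 8.91 to 9.09 in LEC. Of its 9 measured markers 4 were lower in LEC at E18.5, 2 rose in BEC from E14.5 to E18.5, and 5 lay above the background bound in each of the 3 BEC arrays of E18.5. Pparg, which endothelial cells also express, had the highest signal in the sum, at 9.25, 9.89 and 9.59 in those arrays in replicate order, and the adipocyte hormone gene Adipoq read 4.10, 4.56 and 4.31. The part of adipocyte RNA in the Scd1 level was not tested.

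Fads2, which starts the synthesis of long polyunsaturated fatty acids, read 8.85, 8.63 and 8.83 in LEC at E14.5, 7.97, 8.07 and 8.05 at E16.5, then 8.07, 7.98 and 8.32 at E18.5. The BEC arrays gave 8.35, 8.36 and 8.52, then 7.68, 7.71 and 7.62, then 7.03, 7.40 and 6.93. It was higher in LEC by 0.58 ± 0.07 over the 3 ages (adjusted p = 1.4e-06) and by 1.01 ± 0.12 at E18.5 (adjusted p = 2.2e-06). The differences at the earlier ages, 0.37 ± 0.12 and 0.36 ± 0.12, were smaller (adjusted p = 0.046 and 0.037). The E14.5 call was lost on leaving out replicate 1, 2 or 3 of BEC E14.5 or replicate 1 or 3 of LEC E14.5 (0.33 to 0.42, adjusted p = 0.052 to 0.17) and in 1 of the 9 other alternative fits. The E16.5 call was lost on leaving out replicate 1, 2 or 3 of BEC E16.5 or replicate 1, 2 or 3 of LEC E16.5 (0.33 to 0.39, adjusted p = 0.059 to 0.11) and in 1 of the 9 other alternative fits. It fell by 0.65 in LEC and 1.29 in BEC, and the changes differed by 0.64 ± 0.17 (adjusted p = 0.024), a call that was lost on leaving out replicate 3 of BEC E14.5, replicate 1 or 3 of BEC E18.5, replicate 2 of LEC E14.5 or replicate 3 of LEC E18.5 (0.54 to 0.60, adjusted p = 0.052 to 0.075) and in 2 of the 8 other alternative fits. Fads1, the next desaturase of that route, was lower in LEC by 0.39 over the 3 ages (adjusted p = 0.00015), opposite to Fads2, and its difference at E18.5, -0.18 ± 0.12, was not called.

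**Figure D5:**
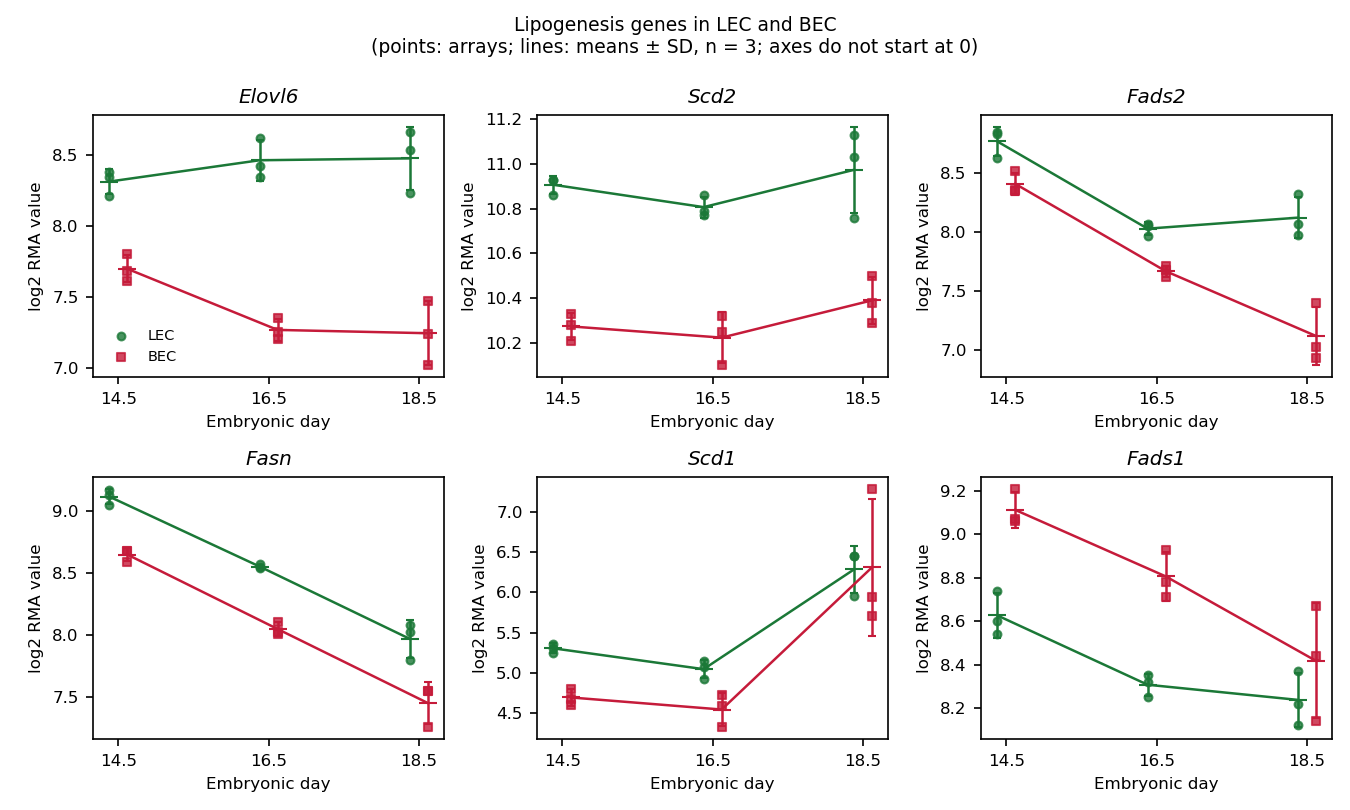
Log2 expression (y axis, not starting at 0) of 6 lipogenesis genes in LEC (green circles) and BEC (red squares) against embryonic day (x axis), with 1 point per array and means ± SD over 3 arrays. Elovl6, Scd2 and Fasn are higher in LEC at each age, Fads2 is farthest apart at E18.5, Fads1 has its lowest means at E18.5 in both cell types, and 1 BEC array of Scd1 at E18.5 stands at 7.29.

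Other genes of the same pathways were read from 2 further lists. Of 28 measured other sterol genes 10 were higher and 7 lower in LEC over the 3 ages, with a median difference of 0.05. Of all genes 18.2% were higher and 19% lower. Scarb1, the high-density lipoprotein receptor, had the largest difference, -2.32 ± 0.07 (adjusted p = 9.2e-16), and it widened from -1.54 at E14.5 to -3.36 at E18.5, with a difference of the age changes of -1.82 ± 0.16 (adjusted p = 6.1e-07). For Vldlr, which takes up lipoproteins, LEC exceeded BEC by 2.13 ± 0.08 (adjusted p = 1.1e-13). Gramd1b and Gramd1c, which carry cholesterol from the plasma membrane to the endoplasmic reticulum, were higher by 1.88 ± 0.06 and 1.56 ± 0.09, and Nceh1, a cholesterol ester hydrolase, by 1.44 ± 0.08.

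Tmem97, a sterol-responsive membrane protein, was higher in LEC by 0.44 ± 0.07 and fell by 1.59 in LEC and 2.07 in BEC. Mylip, an LXR target whose product degrades lipoprotein receptors, rose by 1.89 in BEC (adjusted p = 1.4e-09) and 0.46 in LEC (adjusted p = 0.0033). It was higher in LEC at E14.5 (0.49) and lower at E18.5 (-0.94), and its mean difference of -0.15 was not called. Cyp39a1, an oxysterol hydroxylase, rose by 1.04 in LEC and 1.21 in BEC.

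Of 29 measured other lipogenesis genes 13 were higher and 2 lower in LEC over the 3 ages (all genes 18.2% and 19%), with a median difference of 0.13. Elovl7, an elongase of long fatty acids, was higher by 2.01 ± 0.09 over the 3 ages (adjusted p = 6.3e-13), Lpin1, a phosphatidate phosphatase, by 1.13 ± 0.09 (adjusted p = 4.8e-09) and Me1, a malic enzyme that supplies NADPH, by 1.08 ± 0.05 (adjusted p = 2.5e-12). Me1 rose by 1.96 in LEC and 0.61 in BEC, and Elovl7 rose by 1.12 in LEC, with a BEC change of -0.21 that was not called. Dgat1, which completes triglycerides, fell by 1.15 in LEC and 0.46 in BEC (adjusted p = 1.9e-06 and 0.015). The BEC call of Dgat1 was lost on leaving out replicate 3 of BEC E14.5 (-0.42, adjusted p = 0.064).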

How the data were processed

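The deposited values are log2 expression made by the authors with RMA in oligo 1.54.1, per the submitters' processing notes. RMA corrects background, normalizes and summarises probes. It is not given in the sources used here whether all 18 arrays were normalized together. The table held 35556 rows, of which 21789 had 1 gene symbol, 1621 several and 12146 none in the platform annotation. Entrez identifiers matched 21698 of the single-symbol rows to RefSeq, with 0 symbols changed. The brightest row per gene was kept (999 genes had several), leaving 19938 genes, dim ones included.

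Group means of the 18 arrays were fitted with limma 3.58.1 in R 4.3.3 (12 residual and 6.11 prior degrees of freedom), with 11 contrasts, two-sided p-values and Benjamini-Hochberg adjustment over all genes of a contrast. The fit was tested on simulated data. No block was used, because no label says which replicate number marks which litter. Alternatives were the replicate block, a common median, quantile normalization, trended and robust moderation, array weights, all rows of a gene, a dim filter, only the compared groups, no E18.5 arrays, and each array left out.

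Per class, array values were given for up to 4 called genes with the largest difference between LEC and BEC, 3 with the largest age change and 2 with the largest difference of age changes, 22 genes in all. Other pathway genes were named at an absolute difference of at least 1, at most 8 a list. Members, lists and rules were chosen with earlier results of these data known. A list's summed level is the log2 of the sum of its genes' linear values.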

Additional observations from a re-analysis of the deposited data

Results flagged for a closer look

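The values here are differences between the change from E14.5 to E18.5 in LEC and the same change in BEC, on the log2 scale and positive where LEC changed more positively. Each passed limma's test of that difference at an adjusted p under 0.05 over 19938 genes, with 3 arrays a group. Groups of 3 are too small for a test of single outlying arrays.

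Among sterol synthesis enzymes the difference was 1.58 for Idi1, 1.58 for Msmo1, 1.53 for Cyp51, 1.21 for Sc5d, 1.08 for Hmgcs1, 0.86 for Hsd17b7, 0.73 for Sqle, 0.62 for Nsdhl and 0.61 for Lss. The control genes gave 0.89 for Insig1, -0.89 for Nr1h3 and -0.63 for Srebf1. Cholesterol transport gave 0.82 for Npc1 and -0.74 for Abcg1, and lipogenesis gave 0.64 for Fads2 and 0.61 for Elovl6.

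Among the other genes of these pathways the difference was -1.82 for Scarb1, -1.43 for Mylip, 0.99 for Nceh1, 0.70 for Vldlr, 1.35 for Me1, 1.33 for Elovl7 and -0.69 for Dgat1. The call of Vldlr was lost on leaving out replicate 2 or 3 of BEC E14.5, replicate 1 or 2 of BEC E18.5, replicate 1, 2 or 3 of LEC E14.5 or replicate 2 or 3 of LEC E18.5 (0.58 to 0.72, adjusted p = 0.064 to 0.11) and in 2 of the 8 other alternative fits, and that of Dgat1 on leaving out replicate 1 or 2 of BEC E14.5, replicate 1 or 3 of BEC E18.5, replicate 1, 2 or 3 of LEC E14.5 or replicate 2 of LEC E18.5 (-0.71 to -0.59, adjusted p = 0.052 to 0.08) and in 1 of the 8 other alternative fits.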

How the results depend on the processing

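Of 8624 comparisons of a named or member gene's value with its main value over all alternatives, 8194 kept their side of the threshold and, where called, their direction (132 of them were uncalled in both fits with the sign turned, 2 of these with the mean of all rows of a gene), 265 lost a call, 162 gained one and 3 turned direction. Without the E18.5 arrays the mean difference between LEC and BEC over the ages became -0.033 for Npc1 (adjusted p = 0.7; 0.18 with them) and 0.25 for Mylip (adjusted p = 0.0029; -0.15 with them). Without BEC E18.5 replicate 2 the E18.5 difference of Scd1, -0.03 in full, became 0.46 (adjusted p = 0.033), and over all single arrays left out it ran from -0.33 to 0.46. Of the 37 genes, the number lower in LEC at E18.5 was 4, and 2 with array weights or a fit of the 2 compared groups alone. Rises in BEC from E14.5 to E16.5 numbered 0, and 2 with array weights, 1 with only the compared groups and 1 without the E18.5 arrays. Rises and falls in BEC from E16.5 to E18.5 were 2 and 14, and 4 and 8 after quantile normalization. Rises in BEC from E14.5 to E18.5 were 5, and 3 with a common median or only the compared groups. Leaving out 1 array at a time gave 3 to 6 of these rises (3 without replicate 1 or 2 of BEC E14.5 or replicate 3 of BEC E18.5) and 1 to 2 rises in LEC from E14.5 to E16.5, against 2 (1 without replicate 2 of LEC E14.5 or replicate 1 of LEC E16.5). It gave 26 to 28 genes higher in LEC over the 3 ages, 22 to 24 at E18.5, 14 to 18 at E16.5 against 20 in the full fit, and 9 to 12 with a more positive age change in LEC, against 13.

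Same-numbered LEC and BEC arrays deviated from their group means with correlations, for replicates 1 to 3, of -0.021, 0.13 and 0.068 at E14.5, then -0.043, 0.103 and 0.101, and last 0.072, -0.107 and -0.018. Between arrays of different numbers the correlations ran from -0.176 to 0.159. No label ties the numbers to litters and these values do not settle the pairing, so the numbers were not taken as pairs. With the replicate block, 27 genes were higher and 5 lower in LEC over the 3 ages (26 and 5 without it), 15 and 4, 19 and 4, and 24 and 5 at the single ages, and 10 and 3 age changes differed. As a random block for the age changes its correlation was 0.015 and the counts were those of the main fit. Arrays give no read depth; their number, 3 a group, limits precision, and members' SD at E18.5 (median 0.17) exceeded that at E14.5 (0.10) and E16.5 (0.09).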

Other observations

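The second rows of 3 members were read beside those used. For Idi1 the 2 rows gave a difference of the age changes of 1.58 and 1.64, and for Fdft1 0.50 and 0.54. For Acaca, the change in LEC from E14.5 to E18.5 was -0.47 in the row used and -0.88 in the other, and the difference of the age changes 0.08 and -0.34. The direction of that last value therefore depended on the row, and it was not called in the row used. The change in LEC from E16.5 to E18.5 also differed in direction between rows. It was 0.18 in the row used and -0.15 in the other for Fdft1, and 0.01 and -0.42 for Acaca. Neither change was called in the row used.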
